A study of Homo sapiens with 12 samples.

Results

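The genes described here are 10 genes of actin, its capping protein and its regulators: ACTB and ACTG1, PFN1 and CFL1, CAPZA1, CAPZA2 and CAPZB, FLNA and VCL, and MYL9. They were listed by symbol and matched to the Ensembl identifiers of both deposited tables, and all 10 were found among the 20263 genes of each table. They were picked with the RKO comparison in view, where ACTB was lower and CAPZA1 higher after CKAP2L knockdown. The RKO differences of these genes are therefore given as a description with no test, and only the HCT116 differences were tested.

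RNA was sequenced in 12 libraries of HCT116 and RKO, both established human colorectal cancer cell lines, in 4 groups of 3 libraries. HCT116 carried either an empty vector or a construct that overexpresses CKAP2L, the gene of a mitotic spindle protein. RKO carried either a negative control (NC) or a short hairpin RNA against CKAP2L (shCKAP2L). The titles name shCKAP2L for all 3 libraries of that group, while the genotype labels of replicates 2 and 3 read shCKAP3L and shCKAP4L; the titles were followed. Beyond these, no agent is named for any group, and the sources used here do not say whether the cells were pools or single clones.

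Actin is a small protein that joins end to end into filaments, which carry cell shape, adhesion, migration and the cleavage ring of dividing cells. Filaments grow at the barbed end until capping protein, a dimer of an alpha and a beta subunit, closes that end. Profilin feeds monomers to growing ends and cofilin cuts old filaments, while filamin, vinculin and myosin II link filaments to each other, to adhesion sites and to contraction. Unpolymerised actin holds the coactivators MRTFA and MRTFB away from the transcription factor SRF, which drives actin and many actin regulator genes through a DNA motif called the CArG box.

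Values are TPM, the share of a gene among a library's transcripts after correction for transcript length, scaled to a fixed total. TPM keeps no sequencing depth, so the depth is unknown. CKAP2L was 14.02 ± 1.21 TPM (SD, n = 3) with vector and 227 ± 6.80 with the construct in HCT116, and 24.9 ± 0.880 with NC and 7.99 ± 0.507 with shCKAP2L in RKO. In HCT116, 8 of 11 epithelial markers reached 1 TPM in every library, with summed levels of 7281 to 7671 TPM with vector and 6680 to 6750 TPM with CKAP2L. In RKO, 4 of 11 did, with sums of 198 to 209 TPM with NC and 149 to 159 TPM with shCKAP2L, and CDH1 (E-cadherin) was listed at 0 in all 6 libraries. Of 11 fibroblast and smooth muscle markers, 3 reached 1 TPM in HCT116 (sums 71.0 to 79.2 TPM with vector, 78.0 to 78.6 TPM with CKAP2L). ACTA2 alone did so in RKO (sums 7.87 to 8.97 TPM with NC, 11.5 to 11.9 TPM with shCKAP2L), where DCN, FAP and DES were listed at 0. Of 6 immune markers, 1 (CD68) reached 1 TPM, with sums of 29.9 to 36.1 and 27.6 to 31.0 TPM in HCT116 and 1031 to 1049 and 1056 to 1070 TPM in RKO, where PTPRC and CD3E were listed at 0. None of 4 endothelial markers did, and their sums were at most 1.48 TPM in HCT116 and 0.31 TPM in RKO. The part of these marker differences in the results was not tested. In such bulk libraries, fewer cells of a type and less RNA per cell cannot be told apart.

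The promoters were read for the CArG box, the DNA motif of SRF named above. RefSeq promoter windows on GRCh38.p14, 250 bases before to 50 bases after each gene's start, were matched for 8 of the 10 genes, all but ACTB and MYL9. The CArG box, searched on both strands, was in 2 of the 8, ACTG1 and FLNA, and in both it began 94 bases before the start. Among the other actin pathway genes named below, 15 of 195 windows (7.69%) held it, in 13 of 109 genes. Over all promoters, 454 of 35116 windows (1.29%) did, in 438 of 27305 genes. The pathway genes include a list chosen as SRF, its coactivators and their targets, so their share is not independent of the motif. The 40-base stretches around the motif are shown for ACTG1 and FLNA, and for SRF, CNN2 and EGR1 as pathway genes with values below, each 5′ to 3′ on the gene's strand with the motif, or the one farthest upstream where there are several, in capitals.
ACTG1 (chr17:81512869-81512908, minus strand): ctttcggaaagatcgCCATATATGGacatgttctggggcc
FLNA (chrX:154374704-154374743, minus strand): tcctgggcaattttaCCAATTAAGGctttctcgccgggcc
SRF (chr6:43171224-43171263, plus strand): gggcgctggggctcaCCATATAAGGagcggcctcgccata
CNN2 (chr19:1026504-1026543, plus strand): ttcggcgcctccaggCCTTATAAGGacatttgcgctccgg
EGR1 (chr5:138465359-138465398, plus strand): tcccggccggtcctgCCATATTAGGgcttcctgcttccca
The 250 bases before the start of ACTG1 hold the motif once, and those before the start of CAPZA1, shown for comparison because CAPZA1 had the largest difference of the 10 genes in RKO, hold none.
ACTG1 (chr17:81512800-81513049, minus strand): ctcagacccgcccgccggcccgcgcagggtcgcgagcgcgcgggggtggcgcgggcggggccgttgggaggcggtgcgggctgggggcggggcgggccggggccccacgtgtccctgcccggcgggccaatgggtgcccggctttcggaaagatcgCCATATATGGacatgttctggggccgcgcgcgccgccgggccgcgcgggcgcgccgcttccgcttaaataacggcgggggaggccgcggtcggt
CAPZA1 (chr1:112619582-112619831, plus strand): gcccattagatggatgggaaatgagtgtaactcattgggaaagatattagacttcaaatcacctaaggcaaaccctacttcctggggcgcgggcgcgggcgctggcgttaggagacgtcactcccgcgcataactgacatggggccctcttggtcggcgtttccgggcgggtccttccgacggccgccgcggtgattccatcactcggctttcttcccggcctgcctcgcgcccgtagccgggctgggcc
The whole CAPZA1 window is 60.7% G and C, against 77.3% for ACTG1 and 78.3% for FLNA. A match is a description of these letters and does not show that SRF binds there, nor does the lack of one show that it does not.

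**Figure D1:**
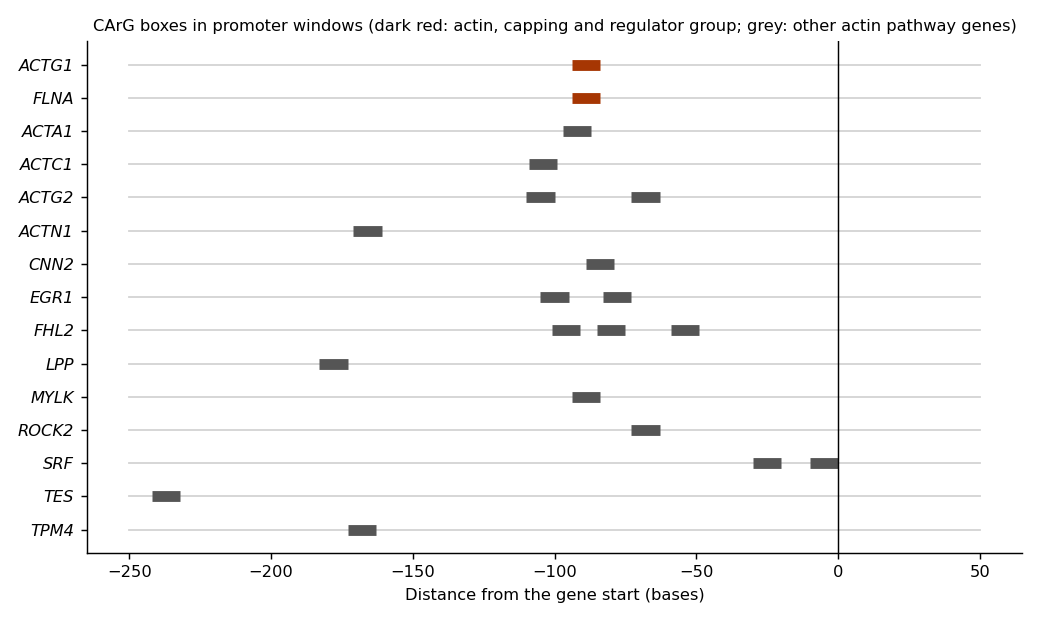
Position of each CArG box, in bases from the gene's start (x axis), in the RefSeq promoter windows of actin pathway genes (1 row per gene). Red marks ACTG1 and FLNA, both at -94, and grey marks the 13 other pathway genes that hold the motif. The marks of FHL2 at -101 and -85 are 1 site seen from separate starts.

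The order of the levels was nearly the same in all 4 groups. Of all TPM, the 10 genes held a median of 1.19% in the HCT116 vector group and 1.02% in the CKAP2L group, and of 1.07% and 0.906% in the NC and shCKAP2L groups of RKO. Both actins alone held 0.967%, 0.818%, 0.725% and 0.590% in the same order of groups. In both HCT116 groups the order was ACTG1, ACTB, PFN1, CFL1, FLNA, CAPZB, CAPZA1, VCL, MYL9 and CAPZA2, and no neighbours overlapped in their values. In RKO with NC the order began with ACTB, then ACTG1, and MYL9 and VCL overlapped. With shCKAP2L, ACTG1 stood above ACTB, CAPZA1 stood above CAPZB, and CAPZA2, VCL and MYL9 overlapped at the end. The lines come from tables normalized separately, so levels set across them were not tested. The most visible gap between the lines was in the cytoplasmic actins, where ACTG1 was 7508 ± 185 TPM (SD, n = 3) in HCT116 with vector and 3223 ± 43.2 TPM in RKO with NC, while ACTB was 2282 ± 84.6 and 4050 ± 20.9 TPM.

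**Figure D2:**
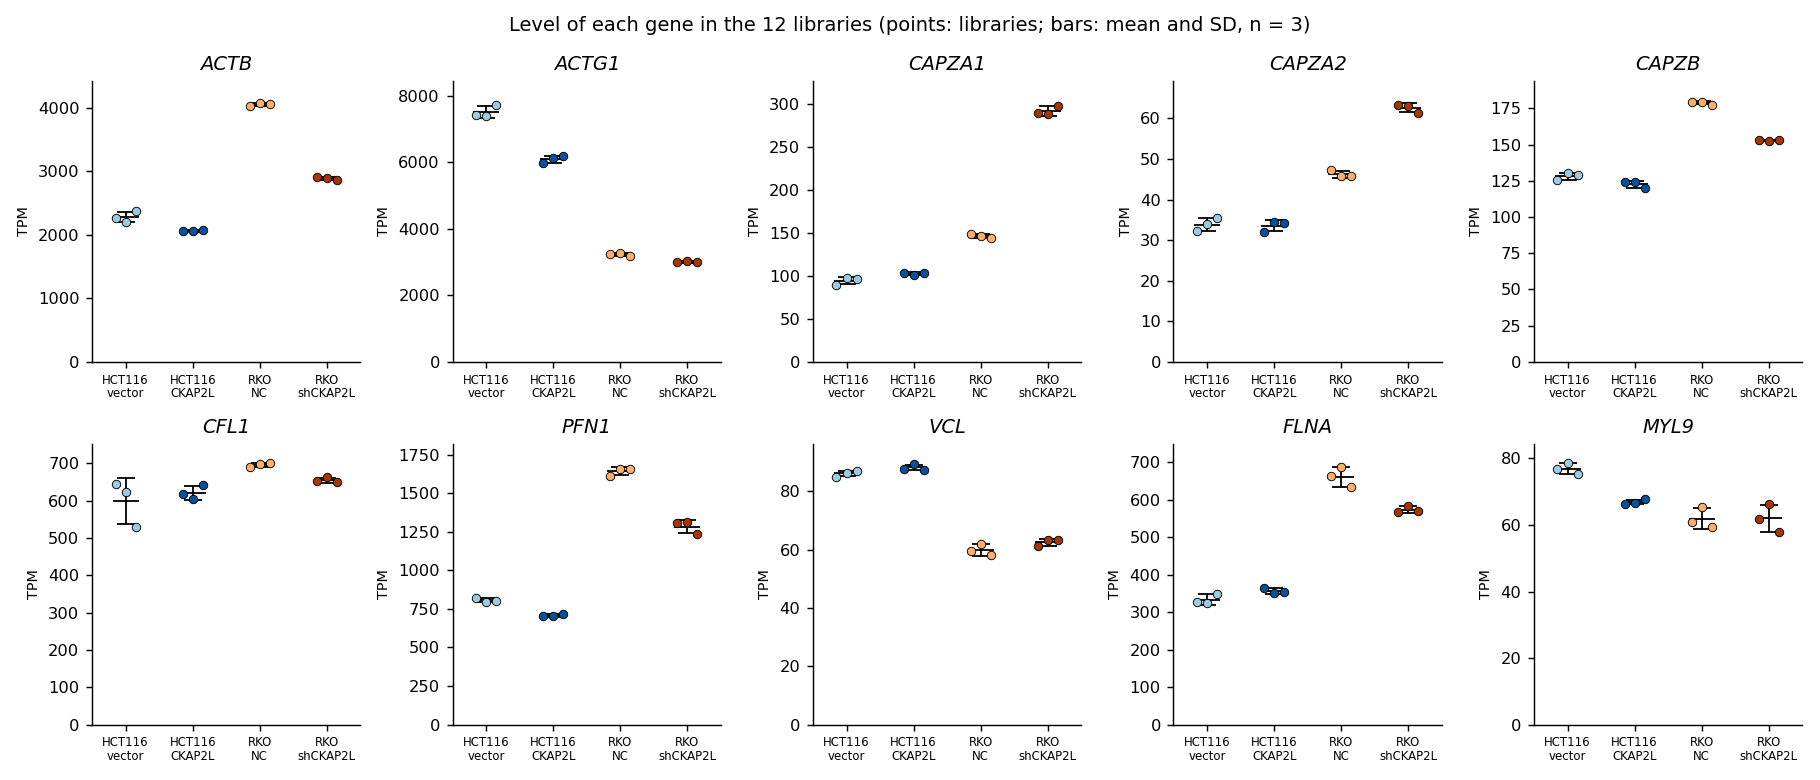
TPM (y axis, from 0) of each of the 10 genes in the 12 libraries, 1 panel per gene, grouped by line and construct; points are libraries and bars the mean and SD of 3. In RKO, CAPZA1 was between 144 and 149 TPM with NC and between 288 and 298 TPM with shCKAP2L, and ACTB was between 4027 and 4069 TPM with NC and between 2868 and 2910 TPM with shCKAP2L.

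With CKAP2L overexpressed in HCT116, both cytoplasmic actins, profilin and the myosin light chain MYL9 fell by 9.6% to 18.9%, and the capping protein alpha subunit CAPZA1 rose by 8.5%. The other 5 genes, CAPZA2, CAPZB, CFL1, VCL and FLNA, did not pass the test. Of the 10, 1 was called higher and 4 lower at an adjusted p under 0.05 (limma on log2(TPM + 1), adjusted over all 12732 tested genes). Over all tested genes, 16.4% were called higher and 4.26% lower. The 2 groups did not overlap for 3 genes that were higher and 5 that were lower with CKAP2L, against 28.3% and 8.98% of all tested genes. The median log2 fold change of the 10 was -0.04, and that of all tested genes was 0.05. The split of all calls moved with the scaling: 2082 genes were higher and 543 lower on the deposited TPM, and 1128 higher and 1188 lower after median-of-ratios rescaling. Of the 10, 0 were then called higher and 5 lower, since CAPZA1 lost its call and CAPZB gained one.

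With CKAP2L knocked down in RKO, CAPZA1 was 1.99 times as high, CAPZA2 was 35.4% higher, ACTB was 28.6% lower and PFN1 was 21.9% lower, while MYL9 and VCL overlapped between the groups. The groups did not overlap for 2 genes that were higher and 6 that were lower with shCKAP2L. Over all 11442 tested genes, 28.1% were higher and 43.3% lower without overlap, and the test called 26.4% higher and 42.1% lower. The median log2 difference of the 10 was -0.09, and that of all tested genes was -0.05. After median-of-ratios rescaling, 3987 genes were called higher and 3999 lower in RKO, instead of 3019 and 4819.

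**Figure D3:**
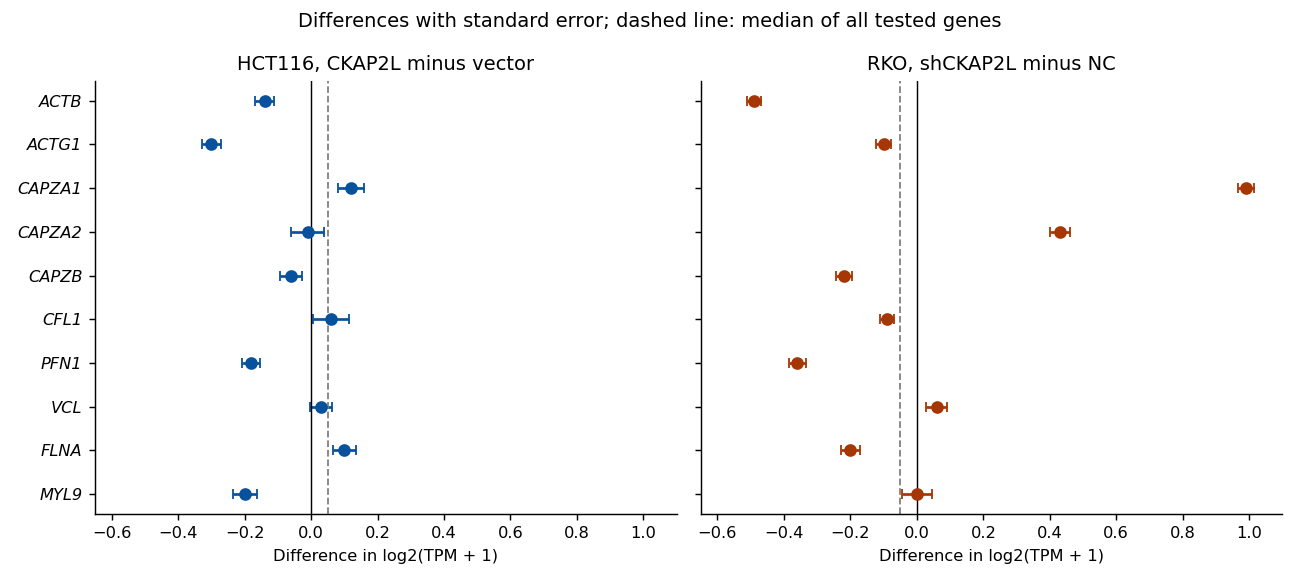
Log2 difference of each of the 10 genes (manipulated minus control, on the log2(TPM + 1) scale, with its SE) in HCT116 (CKAP2L minus vector) and RKO (shCKAP2L minus NC). Dashed lines are the median of all tested genes, 0.05 and -0.05. ACTB, ACTG1, PFN1 and CAPZB lie below 0 and CAPZA1 and VCL above 0 in both lines; VCL was not called in HCT116, where its sign turned under 3 other scalings, and its groups overlapped in RKO.

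ACTB (ENSG00000075624, GRCh38 chromosome 7, 5527147 to 5563784, minus strand) encodes beta-actin, the cytoplasmic actin at the leading edge and a common reference gene. In HCT116, ACTB was 2271, 2204 and 2372 TPM with vector and 2058, 2056 and 2078 TPM with CKAP2L. All 3 CKAP2L libraries lay below all 3 vector libraries and close to each other. The fall was 9.6%, a log2 fold change of -0.14 ± 0.03 (SE), with an adjusted p of 0.00397 (limma). In RKO, ACTB was 4027, 4069 and 4053 TPM with NC and 2910, 2899 and 2868 TPM with shCKAP2L. The gap between the RKO groups was far wider than the spread inside either of them, and ACTB passed from above ACTG1 to below it. The log2 difference was -0.49 ± 0.022, and 547 tested genes had a larger fall in RKO.

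ACTG1 (ENSG00000184009, GRCh38 chromosome 17, 81509971 to 81523847, minus strand) encodes gamma-actin, the other cytoplasmic actin, which differs from beta-actin by a few residues near its start. In HCT116, ACTG1 was the most abundant of the 10 and ranked 11 of all genes, with 7404, 7399 and 7722 TPM with vector and 5962, 6124 and 6177 TPM with CKAP2L. The highest CKAP2L library lay far below the lowest vector library. The fall of 18.9% had a log2 fold change of -0.30 ± 0.028 and an adjusted p of 6.47e-06 (limma), and 82 tested genes had a larger fall. In RKO, ACTG1 was 3227, 3263 and 3177 TPM with NC and 2994, 3039 and 2994 TPM with shCKAP2L. These groups also did not overlap, but the log2 difference, -0.10 ± 0.022, was smaller than that of ACTB in the same libraries. ACTG1 thus had the larger change of the actins in HCT116 and the smaller one in RKO.

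Both actins share coding sequence with other genes, so their split from near copies depends on how reads with several matches were counted, not given in the sources used here. Of the 50-base windows of the ACTB coding sequence, 17.8% also occur in transcripts of 18 other genes in GENCODE release 29. For ACTG1, 7.3% occur in 10 others. Windows were matched on both strands.

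PFN1 (ENSG00000108518, GRCh38 chromosome 17, 4945652 to 4949061, minus strand) encodes profilin 1, which binds actin monomers and hands them to growing ends. In HCT116, PFN1 was 819.5, 796 and 800.4 TPM with vector and 704, 702 and 719 TPM with CKAP2L. It fell by 12% (log2 fold change -0.18 ± 0.027, adjusted p = 0.000327, limma), and every CKAP2L library lay below every vector library. In RKO, PFN1 was 1614, 1657 and 1660 TPM with NC and 1305, 1312 and 1235 TPM with shCKAP2L. The groups were again apart, with a log2 difference of -0.36 ± 0.026. PFN1 is the gene of the 10 with the most shared sequence. Of its 50-base coding windows, 46.1% occur in transcripts of 2 other genes, PFN1P1 and ENO3, and 29.4% in those of PFN1P1. Whether a match is a separate copy or a gene that overlaps the same place was not checked. Where it is a separate copy, the values of PFN1 carry the same doubt as those of the actins.

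CFL1 (ENSG00000172757, GRCh38 chromosome 11, 65823022 to 65862026, minus strand) encodes cofilin 1, which severs filaments and returns monomers to the pool. In HCT116, CFL1 was 646, 623 and 529 TPM with vector and 618, 605 and 642 TPM with CKAP2L. The groups overlapped, and vector replicate 3 stood below the other 5 libraries. The log2 fold change of 0.06 ± 0.055 did not pass the test (adjusted p = 0.496, limma), and without vector replicate 3 it was -0.03. In RKO, CFL1 was 691, 697 and 701 TPM with NC and 652, 663 and 649.7 TPM with shCKAP2L. There the groups did not overlap and the log2 difference was -0.09 ± 0.022. Shared windows made up 16.7% of its coding sequence, with 3 other genes, and SNX32 alone held 15.1%. Whether these are separate copies was not checked.

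The capping protein subunits did not move together. CAPZA1 (ENSG00000116489, GRCh38 chromosome 1, 112619173 to 112671619, plus strand) encodes the alpha 1 subunit. In HCT116, CAPZA1 was 89.5, 97.5 and 96.5 TPM with vector and 103, 101 and 104 TPM with CKAP2L. The groups did not overlap, and CAPZA1 rose by 8.5% (log2 fold change 0.12 ± 0.039, adjusted p = 0.0458, limma). The call was lost in 10 of 15 alternatives, where the adjusted p ranged from 0.02 to 0.278 over all 15. It was lost without CKAP2L replicate 1 (adjusted p = 0.134), 2 (0.082) or 3 (0.133) and without vector replicate 1 (0.204), and under all 3 other scalings. In RKO, CAPZA1 was 149, 147 and 144 TPM with NC and 290.1, 288 and 298 TPM with shCKAP2L. Every shCKAP2L library was far above every NC library, the log2 difference was 0.99 ± 0.025, and 66 of the tested genes had a larger rise. Shared windows made up 13.3% of its coding sequence, with 3 other genes.

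CAPZA2 (ENSG00000198898, GRCh38 chromosome 7, 116811070 to 116922049, plus strand) encodes the alpha 2 subunit, which takes the place of alpha 1 in the dimer. In HCT116, CAPZA2 was 32.2, 34.0 and 35.4 TPM with vector and 32.1, 34.4 and 34.3 TPM with CKAP2L. The groups overlapped almost fully, with a log2 fold change of -0.01 ± 0.049 (adjusted p = 0.908, limma). In RKO, CAPZA2 was 47.2, 45.8 and 45.7 TPM with NC and 63.4, 63.1 and 61.3 TPM with shCKAP2L. The groups did not overlap and the log2 difference was 0.43 ± 0.03, with 728 tested genes showing a larger rise.

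CAPZB (ENSG00000077549, GRCh38 chromosome 1, 19338776 to 19485539, minus strand) encodes the beta subunit, the partner of either alpha. In HCT116, CAPZB was 125, 130.2 and 129 TPM with vector and 124, 124 and 119.9 TPM with CKAP2L. The groups did not overlap, but the log2 fold change of -0.06 ± 0.033 did not pass the test (adjusted p = 0.204, limma). It passed under the 3 other scalings, where it was -0.11 to -0.12 with adjusted p of 0.0205 to 0.0357. In RKO, CAPZB was 179, 179.7 and 178 TPM with NC and 154, 153 and 153 TPM with shCKAP2L. The groups were clearly apart and lower with shCKAP2L, with a log2 difference of -0.22 ± 0.024, opposite in sign to both alpha subunits. No 50-base coding window of CAPZB occurs in another gene.

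FLNA (ENSG00000196924, GRCh38 chromosome X, 154348524 to 154374638, minus strand) encodes filamin A, a long dimer that crosslinks filaments into networks and ties them to membrane proteins. In HCT116, FLNA was 328, 324 and 349.8 TPM with vector and 365, 350.4 and 355 TPM with CKAP2L. The groups did not overlap by a margin under 1 TPM, and the log2 fold change of 0.10 ± 0.034 did not pass the test (adjusted p = 0.0593, limma). Without vector replicate 3, the highest of the vector libraries, it passed with 0.13 and an adjusted p of 0.00234. In RKO, FLNA was 665, 687 and 634 TPM with NC and 567, 584 and 571 TPM with shCKAP2L. All shCKAP2L libraries were below all NC libraries, with a log2 difference of -0.20 ± 0.028.

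VCL (ENSG00000035403, GRCh38 chromosome 10, 73995193 to 74121363, plus strand) encodes vinculin, which binds talin and catenin and holds filaments at adhesions. In HCT116, VCL was 85.0, 86.4 and 86.9 TPM with vector and 87.8, 89.3 and 87.4 TPM with CKAP2L. The groups did not overlap, yet the log2 fold change was 0.03 ± 0.034 (adjusted p = 0.511, limma), and it was -0.01 to -0.02 under the 3 other scalings. In RKO, VCL was 59.5, 62.0 and 58.2 TPM with NC and 61.1, 63.1 and 63.3 TPM with shCKAP2L. These overlapped, with a log2 difference of 0.06 ± 0.032.

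MYL9 (ENSG00000101335, GRCh38 chromosome 20, 36541484 to 36551447, plus strand) encodes a regulatory light chain of myosin II, the motor that pulls on filaments. In HCT116, MYL9 was 76.9, 78.6 and 75.3 TPM with vector and 66.5, 66.5 and 67.7 TPM with CKAP2L. It fell by 13% (log2 fold change -0.20 ± 0.036, adjusted p = 0.00167, limma), with the groups well apart. In RKO, MYL9 was 61.0, 65.3 and 59.3 TPM with NC and 61.8, 66.2 and 58.0 TPM with shCKAP2L. The RKO groups covered the same range, and the log2 difference was 0.00 ± 0.044. None of its 50-base coding windows, nor any of VCL, occurs in another gene.

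Ratios of genes within a library do not move when all its values are multiplied by 1 factor (quantile normalization is no such step). In all 6 ratios computed the groups did not overlap in either line. Some of the 6, named below, were chosen after the values were seen, and ratios of other genes were not computed for comparison. Of single genes, 4752 of 12732 tested in HCT116 and 8175 of 11442 tested in RKO also did not overlap. ACTB to CAPZA1 was 27.1, 27.7 and 28.1 in the RKO NC libraries and 10.0, 10.1 and 9.63 in the shCKAP2L libraries. The ratio was thus 2.79-fold lower with shCKAP2L. Its direction in RKO restates the difference for which the genes were chosen, so it is no separate result. In HCT116 it was 25.4, 22.6 and 24.6 with vector and 20.0, 20.4 and 20.0 with CKAP2L, a log2 difference of -0.26. The smallest p that 3 libraries against 3 allow is 0.1, and each of the 6 ratios in HCT116 reached that p (exact permutation test, two-sided), also after adjustment over the 6.

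The alpha subunits summed over the beta subunit describe the balance of the dimer's parts at the mRNA level. CAPZA1 plus CAPZA2 to CAPZB was 1.09, 1.07 and 1.07 with NC and 2.30, 2.30 and 2.35 with shCKAP2L in RKO. The alpha and beta messages were near parity with NC, and alpha was 2.32 ± 0.0271 times beta with shCKAP2L, a 2.15-fold difference. In HCT116 the ratio was 0.969, 1.01 and 1.02 with vector and 1.09, 1.09 and 1.15 with CKAP2L. CAPZA1 to CAPZA2 was 3.17 ± 0.0301 (SD, n = 3) with NC and 4.67 ± 0.167 with shCKAP2L in RKO, and 2.79 ± 0.0731 with vector and 3.06 ± 0.145 with CKAP2L in HCT116. The alpha messages thus held a larger part of CAPZA1 in both manipulated groups. In HCT116 the margin was narrow, with 2.78, 2.87 and 2.72 for vector and 3.21, 2.93 and 3.03 for CKAP2L. This ratio was not computed with libraries left out, and the protein was not measured here.

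ACTB to ACTG1 differed in opposite directions in the lines. It was 1.25, 1.25 and 1.28 with NC and 0.972, 0.954 and 0.958 with shCKAP2L in RKO, and 0.307, 0.298 and 0.307 with vector and 0.345, 0.336 and 0.336 with CKAP2L in HCT116. Gamma-actin was thus the larger of the actin messages in every HCT116 library and in the shCKAP2L libraries of RKO. PFN1 to CFL1 was lower in both manipulated groups. In HCT116 it was 1.27, 1.28 and 1.51 with vector and 1.14, 1.16 and 1.12 with CKAP2L. The vector mean of 1.35 ± 0.138 was raised by replicate 3, where CFL1 was 529 TPM, and this ratio was not computed without that library. In RKO it was 2.36 ± 0.0205 with NC and 1.96 ± 0.0536 with shCKAP2L. PFN1 to CFL1 and CAPZA1 to CAPZA2 were chosen after the values were seen.

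**Figure D4:**
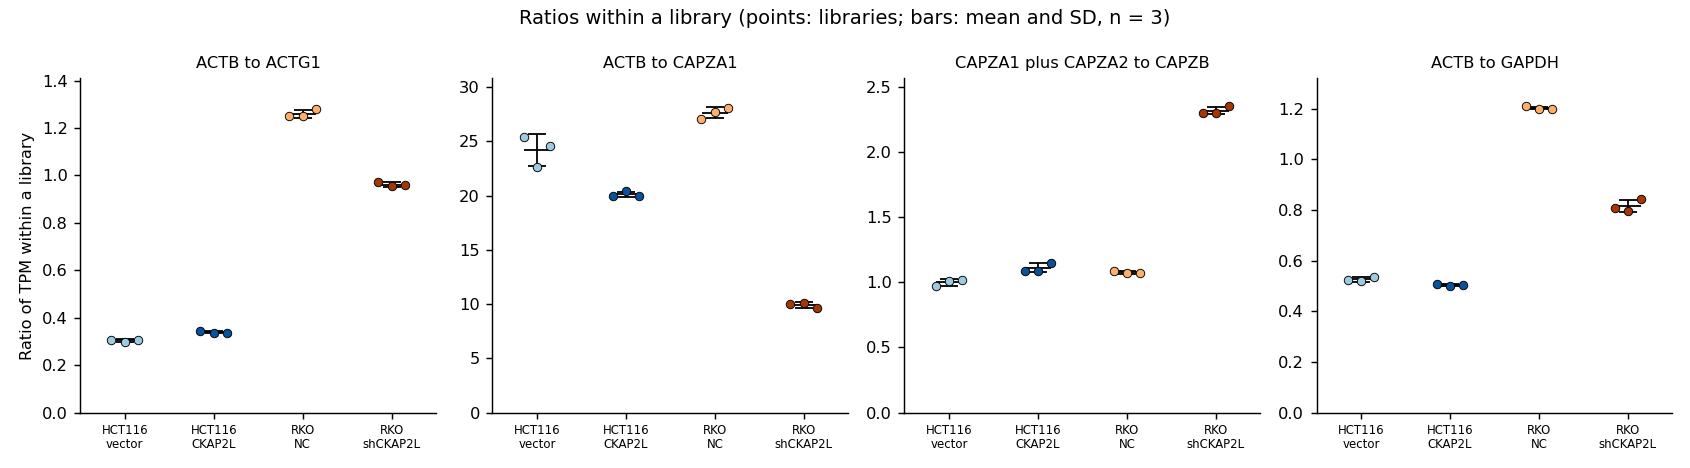
Ratio of TPM values within each library (y axis, from 0) for 4 pairs of genes or gene sums, in the 4 groups; points are libraries and bars the mean and SD of 3. In RKO the ACTB to CAPZA1 ratio was 27.1 to 28.1 with NC and 9.63 to 10.1 with shCKAP2L, and the capping protein alpha to beta ratio was 1.07 to 1.09 with NC and 2.30 to 2.35 with shCKAP2L.

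ACTB is often used to scale other genes, and it did not keep a fixed ratio to GAPDH. ACTB to GAPDH was 0.525, 0.519 and 0.537 with vector and 0.508, 0.5 and 0.503 with CKAP2L in HCT116. It was 1.21, 1.20 and 1.20 with NC and 0.810, 0.795 and 0.843 with shCKAP2L in RKO, a 1.47-fold difference. GAPDH, a glycolytic enzyme, fell in HCT116 from 4329 ± 84.6 to 4097 ± 42.5 TPM (log2 fold change -0.08 ± 0.027, adjusted p = 0.0485, limma) and rose in RKO from 3367 ± 32.7 to 3546 ± 129 TPM (0.07 ± 0.027, adjusted p = 0.0232). Of 12 common reference genes other than the actins, 3 rose and 3 fell in HCT116, and 3 rose and 5 fell in RKO, with medians of -0.01 and -0.04. These are 25% and 25% in HCT116, beside 16.4% higher and 4.26% lower of all tested genes. In RKO they are 25% and 41.7%, near the 26.4% and 42.1% of all tested genes. In HCT116 the split was 0 higher and 4 lower after median-of-ratios rescaling.

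The surrounding actin pathway was described by 9 lists with 127 genes besides the 10. In HCT116, 120 were tested, 27 rose and 6 fell (22.5% and 5.0%), and the median log2 fold change was 0.07. After median-of-ratios rescaling the split was 14 higher and 11 lower. In RKO, 114 were tested, 35 rose and 59 fell (30.7% and 51.8%), with a median of -0.09. These shares stand beside the 16.4% and 4.26% of all tested genes in HCT116 and the 26.4% and 42.1% in RKO given above.

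Among other actins and actin-related proteins, 1 of 5 tested genes fell in HCT116, and 2 rose and 2 fell of 4 in RKO. ACTR1A, the dynactin subunit ARP1, fell in both lines, from 108 to 98.2 TPM in HCT116 (adjusted p = 0.0162, limma) and from 159 to 149 TPM in RKO (adjusted p = 0.00607). ACTA2, smooth muscle actin, rose in RKO from 6.79 ± 0.411 to 10.3 ± 0.126 TPM (log2 fold change 0.54 ± 0.051, adjusted p = 2.03e-07). ACTA2 is also the fibroblast marker that moved in the marker sums above. In HCT116 it was 23.9 ± 1.69 TPM with vector and 23.2 ± 1.49 TPM with CKAP2L (adjusted p = 0.651).

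Of 12 tested genes of other capping and severing proteins, 3 rose in HCT116, TMOD3, AVIL and GSN. None of that list was called in HCT116 after median-of-ratios rescaling. In RKO, 4 rose and 6 fell, with a median of -0.13, and the split was 4 and 4 after rescaling. Gelsolin (GSN), which severs filaments and then caps them, rose in RKO from 28.2 ± 1.00 to 42.9 ± 0.660 TPM (adjusted p = 8.67e-10, limma). Twinfilin (TWF1), which binds monomers and capping protein, fell from 136 ± 4.05 to 109 ± 1.05 TPM (adjusted p = 1.01e-07). Alpha-adducin (ADD1), which caps filaments of the membrane skeleton, rose by 0.28 ± 0.031 on the log2 scale (adjusted p = 1.05e-06).

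In the list of the cofilin pathway and monomer binding proteins, 2 of 16 genes rose and 1 fell in HCT116, while 3 rose and 10 fell in RKO, with medians of 0.02 and -0.20. After median-of-ratios rescaling the HCT116 split was 0 higher and 2 lower, so the HCT116 calls of SSH1 and PFN2 given next were lost there. Thymosin beta 10 (TMSB10), an abundant monomer-binding peptide, fell in RKO from 4461 ± 61.6 to 3064 ± 89.7 TPM (log2 fold change -0.54 ± 0.026, adjusted p = 8.29e-11, limma), a change near that of ACTB. The phosphatase SSH1, which activates cofilin, rose in both lines (log2 fold change 0.14 ± 0.045 in HCT116 and 0.55 ± 0.033 in RKO). CAP1, which recycles monomers, fell in both (-0.11 ± 0.029 and -0.36 ± 0.024). Profilin 2 (PFN2), the paralog of PFN1, rose in HCT116 from 112 ± 2.70 to 122.5 ± 1.16 TPM (adjusted p = 0.0144, limma) while PFN1 fell. In RKO it was called higher, from 59.9 ± 1.15 to 72.0 ± 0.897 TPM (adjusted p = 8.68e-07).

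Among nucleation and elongation factors, 4 of 20 rose and 0 fell in HCT116 (2 and 0 under each of the 3 other scalings), and 5 of 19 rose and 10 fell in RKO. VASP, which speeds growth at barbed ends, rose in HCT116 from 109 ± 2.91 to 132 ± 2.68 TPM (adjusted p = 0.000115, limma). In RKO it was 196 ± 4.52 and 189 ± 1.30 TPM (adjusted p = 0.0571). The formin DIAPH1 rose in HCT116 (0.11 ± 0.034, adjusted p = 0.0362, limma, and 0.155 to 0.224 under the 3 other scalings) and fell in RKO (-0.31 ± 0.026, adjusted p = 4.83e-08). Cortactin (CTTN) and ARPC2, a subunit of the Arp2/3 complex, fell in RKO by 0.42 ± 0.025 and 0.28 ± 0.024 on the log2 scale.

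Among crosslinkers, 4 of 15 rose and 2 fell in HCT116, and 6 of 13 rose and 7 fell in RKO, where rescaling gave 6 higher and 4 lower. ACTN4, an alpha-actinin, rose in RKO from 103 ± 2.37 to 169 ± 2.56 TPM (adjusted p = 6.59e-12) and fell in HCT116 from 425 ± 17.2 to 389 ± 2.13 TPM (adjusted p = 0.013). Fascin (FSCN1), which bundles filaments in filopodia, fell in HCT116 (-0.19 ± 0.03, adjusted p = 0.000742) and rose in RKO (0.65 ± 0.03, adjusted p = 6.35e-11).

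Among focal adhesion genes, 6 of 16 rose and 0 fell in HCT116 (3 and 0 after median-of-ratios rescaling), and 5 of 15 rose and 6 fell in RKO, where rescaling gave 7 higher and 4 lower. TRIP6, an adhesion adaptor of the zyxin family, had the highest value of the pathway lists in HCT116, rising from 115 ± 1.66 to 149.8 ± 1.43 TPM (log2 fold change 0.38 ± 0.032, adjusted p = 2.23e-06, limma). In RKO it fell from 316 ± 4.98 to 272 ± 6.05 TPM (adjusted p = 1.75e-06). Testin (TES) likewise rose in HCT116 (0.19 ± 0.03) and fell in RKO (-0.56 ± 0.031). Paxillin (PXN), the adhesion scaffold, rose in RKO from 194.5 ± 5.72 to 312 ± 3.21 TPM (adjusted p = 8.52e-12, limma). ILK, a protein that binds integrin tails, fell there from 239 ± 0.611 to 164 ± 2.11 TPM (adjusted p = 3.43e-11, limma).

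In the list of myosin II and tropomyosin, 2 of 17 rose and 1 fell in HCT116, and 3 of 16 rose and 9 fell in RKO, with medians of -0.01 and -0.22. After median-of-ratios rescaling the HCT116 split was 1 higher and 5 lower. The calponins CNN2 and CNN3, which bind actin and restrain myosin, fell in RKO from 228 ± 7.23 to 141 ± 3.90 TPM and from 219.9 ± 6.96 to 138 ± 2.255 TPM (adjusted p = 2.39e-11 and 1.85e-11, limma). CNN3 rose in HCT116 (0.15 ± 0.03, adjusted p = 0.00374, limma, and 0.0872 after median-of-ratios rescaling). Transgelin 2 (TAGLN2) fell in both lines, by 0.15 ± 0.031 on the log2 scale in HCT116 and 0.55 ± 0.028 in RKO. MYL9, which belongs to the same complex as the myosin heavy chains of this list, fell in HCT116 and overlapped between the RKO groups.

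Of 13 genes listed under SRF, its MRTF coactivators and their targets, 5 rose and 0 fell in HCT116, and 6 rose and 6 fell in RKO. Whether SRF drives each of them in these cells was not tested. The early growth response gene EGR1 rose in HCT116 from 316 ± 26.1 to 388 ± 6.85 TPM (adjusted p = 0.000477) and in RKO from 201.5 ± 3.30 to 258 ± 2.47 TPM (adjusted p = 3.9e-09). The matrix protein gene CCN1 rose in HCT116 (0.25 ± 0.038) and fell in RKO (-0.48 ± 0.024). Its relative CCN2 was 43.6, 37.5 and 37.6 TPM in the NC libraries and 11.3, 10.5 and 11.4 TPM in the shCKAP2L libraries of RKO, a mean that fell by 72.1% (adjusted p = 8.9e-13, limma). In HCT116 CCN2 was 27.9 ± 0.374 and 29.9 ± 1.48 TPM (adjusted p = 0.18). SRF, MRTFA and MRTFB were named after their values were seen. SRF fell in RKO from 64.9 ± 1.05 to 57.6 ± 2.14 TPM (adjusted p = 0.000226) while MRTFA rose from 13.5 ± 0.535 to 15.7 ± 0.655 TPM (adjusted p = 0.00111) and MRTFB from 6.89 ± 0.309 to 11.0 ± 0.222 TPM (adjusted p = 3.01e-08). In HCT116 none of the 3 passed the test (adjusted p of 0.567, 0.885 and 0.981).

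**Figure D5:**
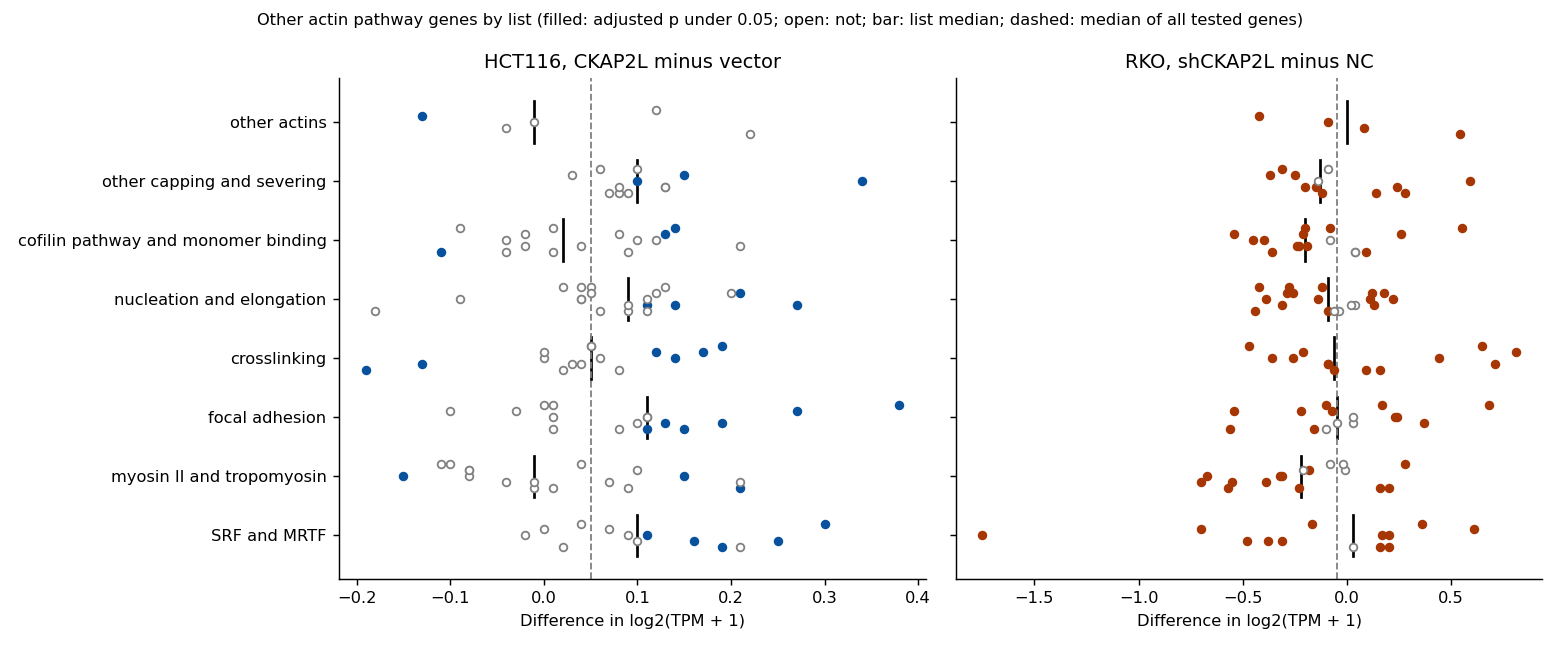
Log2 fold change (x axis, manipulated minus control, log2(TPM + 1) scale) of each tested gene of 8 of the actin pathway lists in HCT116 and RKO. Each point is a gene, filled where it was called; black bars are list medians and dashed lines the median of all tested genes. The HCT116 points lie between -0.19 and 0.38 and the lowest RKO point at -1.75.

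Of the 114 pathway genes tested in both lines, 32 were called in HCT116 and 94 in RKO, and 26 in both, which is 81.2% of the HCT116 calls and 27.7% of the RKO calls. Over all 11024 genes tested in both, 1744 were called in both, 75.1% of the HCT116 calls and 22.9% of the RKO calls. Of the 26 pathway genes, 10 rose in HCT116 and fell in RKO, 2 fell in HCT116 and rose in RKO, 10 rose in both and 4 fell in both. The same counts over the 1744 genes were 807, 104, 568 and 265. Of the 10 genes described above, ACTB, ACTG1, PFN1 and CAPZB were lower and CAPZA1 higher without overlap in both manipulated groups, with CKAP2L raised in HCT116 and lowered in RKO. Over all tested genes, 28.3% were higher and 8.98% lower without overlap in HCT116, and 28.1% and 43.3% in RKO. The share of all genes that did so in both lines was not computed, and the 10 were picked with the RKO comparison in view. In HCT116, CAPZB did not pass the test on the deposited TPM, and the CAPZA1 call was lost in 10 of 15 alternatives. No test between the lines was made.

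Likeness to ACTB and CAPZA1 was measured as Pearson's r of log2(TPM + 1) over the 12 libraries after each line's mean was subtracted, over 9281 genes whose mean TPM reached 5 in both lines. The libraries of a group share their construct, so r mostly follows the group differences, above all that of RKO. The genes most like ACTB were TKT (r = 0.994), MORF4L2 (0.993), CDC37 (0.993), KRT18 (0.991) and SNRPA1 (0.990). Those most like CAPZA1 were LYPLA2 (0.996), HPCAL1 (0.995), PSD4 (0.995), SELENOT (0.995) and RTF2 (0.994). Among the 10 genes themselves, r was 0.967 between ACTB and CAPZB and 0.965 between ACTB and PFN1. Between ACTG1 and MYL9 it was 0.788. Their log2 fold changes were -0.3 and -0.2 in HCT116, and MYL9 had a difference of 0.0 in RKO. The value between ACTB and CAPZA1, -0.974, restates the RKO difference for which the genes were chosen. The other values with ACTB or CAPZA1, in both lists above too, rest largely on that same comparison.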

How the data were processed

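The authors deposited TPM values for 20263 Ensembl genes, as 1 table for each line. The submitters' processing notes list the build GRCh38 and the tools HISAT2 2.0, bedtools 2.26.0, Trimmomatic 0.36 and FastQC 0.11.2. The counting tool and annotation were not given in the sources used here. Titles gave the groups and replicate numbers; for RKO shCKAP2L replicates 2 and 3 the genotype labels carry other symbols, which were not used. Since no label says that replicates were separate cultures, a p-value covers the spread of these libraries alone, which may be technical. Each line was fitted separately with limma 3.58.1 (R 4.3.3) on log2(TPM + 1), a scale that understates changes of low genes, for genes whose mean TPM reached 1. The prior variance followed a trend, tests were two-sided, and p-values were adjusted by Benjamini-Hochberg over all tested genes and called under 0.05. The fit was tested on simulated data. Positions and shared windows came from GENCODE release 29 and promoters from RefSeq. The genes, lists and tests were chosen with earlier results of these data known. Named were all 10 genes and, per pathway list and line, up to 3 called genes with the smallest adjusted p and no overlap of the groups, with the other line's value where useful. Alternatives were other pseudocounts, filters and scalings, no variance trend, a replicate block and leaving out each library. Some results that these rules would name are not reported here.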

Additional observations from a re-analysis of the deposited data

How the results depend on the processing

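In HCT116, the falls of ACTG1, PFN1 and MYL9 held their direction and call in all 15 alternatives. ACTB kept its direction in all, but its call was lost with quantile normalization (log2 fold change -0.117, adjusted p = 0.123, limma) and with no variance trend (-0.144, 0.0638). CAPZA1 lost its call with no filter on low values (0.118, adjusted p = 0.0876, limma), median-of-ratios rescaling (0.06, 0.278), quantile normalization (0.07, 0.207), TPM without mitochondrial mRNAs (0.07, 0.227) and no variance trend (0.118, 0.132), and ranged from 0.079 to 0.141 on leaving out 1 library. CAPZB gained a call under the 3 other scalings (-0.12, -0.117 and -0.11). VCL turned to -0.024, -0.012 and -0.014 under them, and CFL1 to -0.001 with median-of-ratios rescaling. On leaving out 1 library, CFL1 ranged from -0.03 to 0.114, CAPZA2 from -0.046 to 0.022 and FLNA from 0.075 to 0.131, and FLNA passed with a mean TPM of at least 5 (0.096, adjusted p = 0.046, limma). Of all HCT116 genes, 1128, 1102 and 1158 were called higher and 1188, 1131 and 959 lower with median-of-ratios rescaling, quantile normalization and no mitochondrial mRNAs, 341 lower with no filter and 267 lower with no variance trend; leaving out 1 library gave 1183 to 2851 higher and 296 to 577 lower. The pathway counts were 14, 16, 14 and 15 higher and 11, 10, 10 and 3 lower with the 3 scalings and no variance trend, and 14 to 40 higher and 3 to 9 lower on leaving out 1 library. Vector replicate 3 gave the highest of each range when left out, 2851 and 577 genes and 40 and 9 pathway genes. For the rest the cause was not tested. In RKO, every gene of the 10 but MYL9 (-0.05 to 0.07) kept its sign, ACTB between -0.55 and -0.43 and CAPZA1 between 0.97 and 1.04, and the counts stayed within 1.5 times.

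The replicate numbers were checked for pairing. Deviations of same-numbered libraries correlated between -0.088 and 0.049, and those of libraries with different numbers between -0.03 and 0.074. No pairing by number was seen, but with 3 libraries per group this cannot show that same-numbered libraries were prepared apart. With the number as a replicate block, 1761 genes were higher and 439 lower in HCT116 and 3024 and 4837 in RKO, and CAPZA1 in HCT116 (0.118) had an adjusted p of 0.0649 (limma). TPM carries no depth, so depth limits cannot be stated.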
